A study of Drosophila melanogaster with 13 samples.

Results

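The comparison described here is the effect of larval diet on the adult head transcriptome within SD2, an isofemale line of Drosophila melanogaster, that is, a stock descended from a wild-caught female. Its samples were picked by strain, and the comparison was chosen with earlier results of these data known. It rests on 4 RNA samples of 12 in the study, sequenced as 5 libraries of 13. The LPS flies (low protein, high sugar) had fed as larvae on food whose ratio of protein to carbohydrate was 0.1, and the HPS flies (high protein, low sugar) on food whose ratio was 0.43. LPS was represented by a female sample and by a male sample sequenced as 2 libraries, whose counts were summed. HPS was represented by a female and a male sample with 1 library each. All larvae were kept at 25 °C in a 12 h light and 12 h dark cycle, with 40 larvae in each of 10 vials per diet, and heads were collected 2 to 6 h after eclosion. Each RNA sample was a pool of 70 to 80 heads. Males and females of a diet came from the same vials, so only the sexes replicate a diet and a p-value reflects no more than how these pools vary, which may be technical. The question was what a larval diet leaves behind in the head of the young adult.

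An insect larva stores amino acids for metamorphosis in serum storage proteins, which its fat body makes in bulk, secretes and takes up again before pupation. Many fat body cells of the larva persist, floating free, into the first days of adult life and are then lost, while a separate adult fat body forms. The fat body, which also lies in the head, is in addition a main source of antimicrobial peptides, of lipoproteins and of enzymes that handle sugars, lipids and toxins. Heads of newly eclosed flies furthermore hold cuticle that is still being tanned, muscle, eyes and brain.

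Depth was 17.7 M gene reads in the female LPS library, 15.9 M and 11.7 M in the first and second male LPS libraries, 16.9 M in the female HPS library and 10.2 M in the male HPS library. The second male LPS library and the male HPS library came from a different sequencing run than all other libraries, and in them 14.9% and 10.4% of reads fell outside genes, against 2.93% to 4.96% in the 11 libraries of the larger run. Levels are given as counts per M gene reads after scaling of the library size (CPM). A floor of 3 reads, used here as a mark for low values and not as a filter, corresponded to 0.17 to 0.293 counts per M. All 5 libraries carried the transcripts that define a head: ninaE, the main rhodopsin of the eye, stood between 20442 and 25663 CPM, nSyb, a synaptic vesicle protein of neurons, between 991 and 1104 CPM, and repo, the transcription factor of glia, between 39.0 and 55.9 CPM. The dosage compensation RNA roX1, which is made in males, had 23 and 22 reads in the female LPS and HPS libraries and at least 10251 reads in each male library. The SD2 samples resembled each other (Pearson correlation of log2 CPM across genes of 0.981 or above) more than any of them resembled a sample of another strain (0.975 or below), as a description across genes.

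Larval diet went with different levels of 265 of 9806 tested genes in SD2 heads (2.7%), of which 92 were higher on LPS (0.938% of the genes tested) and 173 lower (1.76%), by edgeR's quasi-likelihood test with sex in the model and an adjusted p below 0.05 (Benjamini-Hochberg over all genes tested). The changes were mostly moderate. The median absolute log2 fold change of the 265 genes was 0.61, and 43 of them reached at least 1 on that scale, 20 higher and 23 lower. In 254 of the 265 genes the sign was the same in both sexes and also when the second male LPS library alone stood for male LPS, which compares each sex within a sequencing run. The 3 LPS libraries did not overlap with the 2 HPS libraries in 208 of the 265 genes (78.5%), against 23.3% of all genes tested. The 265 genes were picked for a diet difference in these same libraries. Both counts are therefore descriptions and give no separate support. By chromosome arm, the called share ran from 1.75% of tested genes on X to 3.81% on 2R.

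This count depends on how the spread between replicates is estimated, since SD2 alone leaves 1 residual degree of freedom and edgeR then took each gene's spread entirely from the trend over genes. With the spread estimated over 10 RNA samples of all 3 strains, 30 genes passed (0.306%), 9 higher (0.0919%) and 21 lower (0.214%), and all 30 were among the 265. With all 12 samples as labelled none passed and 356 genes had an unadjusted p below 0.05, while DESeq2 on the 4 SD2 samples called 58 genes. When each SD2 sample was left out of the 10-sample fit, 8 genes passed without male LPS, 11 without female LPS, 14 without male HPS and 5 without female HPS. Among the 62 called genes named by rule that had a value there, Fbp1, Fbp2, Cyp4e3 and CG8665 passed in each of these 4 fits, and in 27 the log2 value moved by over 1.5 times in at least 1 of them. Below, a gene that rose or fell passed in the SD2 samples, and the adjusted p of the 10-sample fit is given with the leading genes. Counts within gene lists are to be read beside those over all genes tested. Of these, 0.938% rose and 1.76% fell, and of 9806 genes 4963 had a positive and 4843 a negative fold change.

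**Figure D1:**
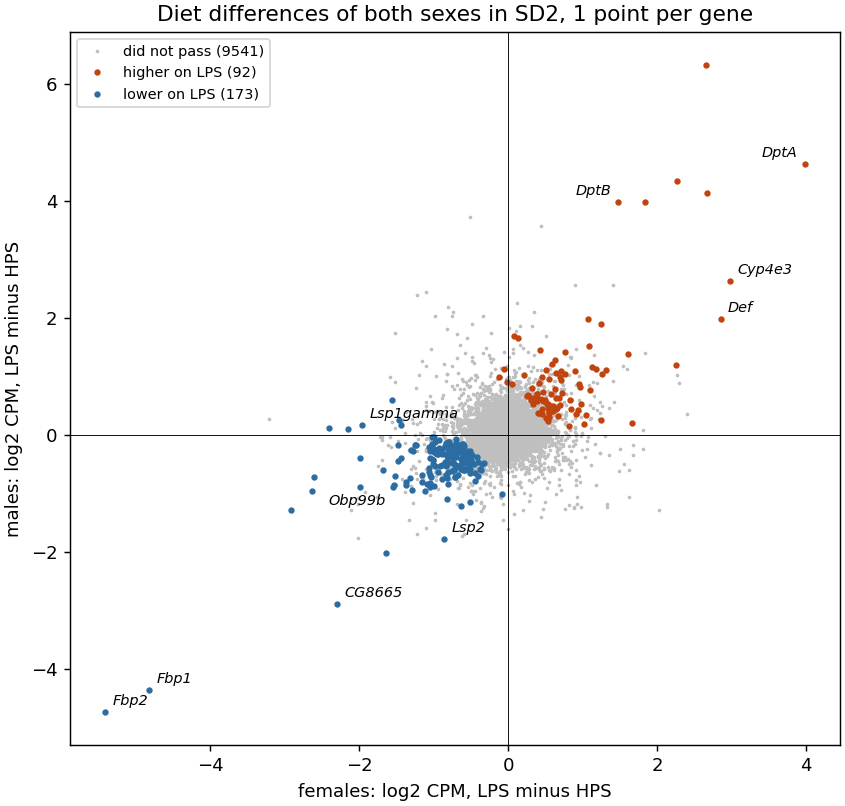
Difference in log2 CPM between LPS and HPS in SD2 females (x axis) and SD2 males (y axis), 1 point per tested gene, with 92 genes higher on LPS in orange, 173 lower in blue and the remaining genes in grey. Fbp1 and Fbp2 lie alone at the lower left, DptA and Cyp4e3 at the upper right, and a few called genes such as Lsp1gamma were far from 0 in females and close to 0 in males.

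The larval storage proteins had the lowest median of the 32 gene lists examined. All 6 tested genes of this group fell, with log2 fold changes from -5.18 to -0.99 and a median of -1.78, against a median of 0.00 over all genes tested. The list was drawn up with results of these data known, so its count is a description. The summed level of the 6 transcripts was 61.7 CPM in the female LPS library and 56.0 and 53.1 CPM in the male LPS libraries, against 218 CPM in the female and 192 CPM in the male HPS library. In pooled heads, fewer cells of a type and less RNA per cell cannot be told apart.

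Fbp1 (FBgn0000639, on 3L), the receptor through which the fat body takes storage proteins back up, had 2.33 CPM in the female LPS library and 1.49 and 1.52 CPM in the male LPS libraries, against 67.6 CPM in the female and 31.6 CPM in the male HPS library. Both HPS values lay far above all 3 LPS values, and the difference was alike in the sexes, -4.82 in females and -4.36 in males on the log2 scale. Its level was 24.9-fold lower on LPS (log2 fold change -4.64 ± 0.18 SE, adjusted p = 8.96e-140 in SD2 and 1.26e-06 in the 10-sample fit). Fbp2 (FBgn0000640, on 2L), a protein of the larval fat body that resembles alcohol dehydrogenase, had 0.568 CPM in the female LPS library and 0.434 and 0.591 CPM in the male LPS libraries, against 26.6 CPM in the female and 14.7 CPM in the male HPS library. The LPS values rest on 10, 7 and 7 reads, above the floor of 3 reads but few, whereas the HPS libraries held 432 and 151 reads. Its level was 36.4-fold lower on LPS (log2 fold change -5.18 ± 0.25 SE, adjusted p = 4.4e-88 in SD2 and 1.73e-06 in the 10-sample fit).

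Among the storage proteins themselves the decrease was smaller. Lsp2, larval serum protein 2, had 39.4 CPM in the female LPS library and 34.98 and 33.8 CPM in the male LPS libraries, against 71.9 CPM in the female and 117 CPM in the male HPS library. The diets did not overlap, and the fold change was 2.51 downwards on LPS (log2 -1.33 ± 0.12 SE, adjusted p = 4.91e-24 in SD2 and 0.0174 in the 10-sample fit). The Lsp2 difference was -0.859 in females and -1.78 in males on the log2 scale. Lsp2 did not pass with DESeq2 on the SD2 samples (adjusted p = 0.255). In the 10-sample fit its log2 value was -1.16 without male LPS and -1.54 without female LPS. It was -0.915 without male HPS and -1.745 without female HPS. The subunit gene Lsp1beta had 15.6 CPM in the female LPS library and 14.9 and 13.3 CPM in the male LPS libraries, against 34.95 CPM in the female and 24.6 CPM in the male HPS library. It too was lower on LPS in both sexes (log2 -0.99 ± 0.14 SE, adjusted p = 1.81e-09 in SD2 and 0.0174 in the 10-sample fit).

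Lsp1alpha had few reads on LPS, with 8 reads in the female library and 10 and 6 reads in the male libraries, against 62 reads in the female and 15 reads in the male HPS library. The fitted log2 fold change was -2.23 ± 0.41 SE (adjusted p = 7.56e-06 in SD2, 0.0628 in the 10-sample fit). Lsp1gamma separated the diets in females and not in males. It had 3.35 CPM in the female LPS library and 3.60 and 3.46 CPM in the male LPS libraries, against 13.2 CPM in the female and 3.11 CPM in the male HPS library. The male HPS value lay below all 3 LPS values, and the log2 fold change of -1.08 ± 0.22 SE (adjusted p = 0.000178 in SD2, 0.285 in the 10-sample fit) came to -0.00495 (adjusted p = 0.999) in the 10-sample fit when the female HPS sample was left out.

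**Figure D2:**
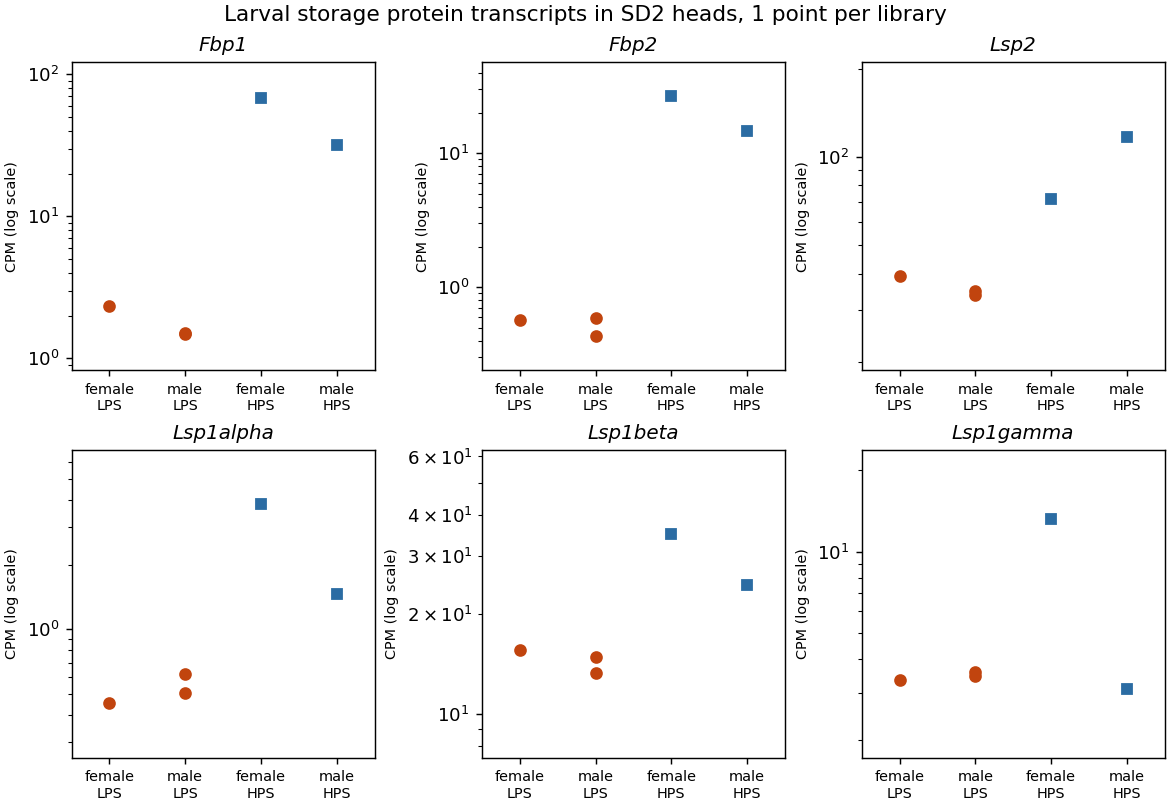
CPM on a log axis of the 6 larval storage protein genes, 1 point per library, with LPS (orange circles, 1 female and 2 male libraries) left of HPS (blue squares, 1 female and 1 male library). In 5 of the 6 panels both HPS libraries lie above all LPS libraries, and in the Lsp1gamma panel the male HPS library (3.11 CPM) lies below them.

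The summed markers of the adult fat body, of haemocytes and of gut overlapped between the diets, unlike the storage proteins. For the adult fat body the overlap was across the sexes only. The summed level of 16 tested genes of the adult fat body and of lipoproteins was 3500 CPM in the female LPS library and 2980 and 2940 CPM in the male LPS libraries, against 3300 CPM in the female and 2700 CPM in the male HPS library. Within each sex this sum was higher on LPS, and 12 of the 16 genes had a positive fold change. Within this group apolpp, the precursor of the main blood lipoprotein, rose (log2 0.61 ± 0.14 SE) and NLaz, a secreted lipocalin, fell (log2 -0.43 ± 0.13 SE), and the other 14 tested genes did not pass. The haemocyte and basement membrane group summed to 2320 CPM in the female LPS library and 2000 and 1950 CPM in the male LPS libraries, against 2400 CPM in the female and 1850 CPM in the male HPS library. In it Hml, a haemocyte clotting protein, and Ppn, a basement membrane proteoglycan, rose by 0.56 and 0.48 on the log2 scale, and no other of its 16 tested genes passed. Gut enzyme transcripts summed to 168 to 195 CPM on LPS and 174 to 191 CPM on HPS.

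Cyp4e3 had the smallest adjusted p of the genes that rose on LPS. Cyp4e3 (FBgn0015035, on 2L), a cytochrome P450, had 680 CPM in the female LPS library and 461 and 454 CPM in the male LPS libraries, against 86.8 CPM in the female and 73.0 CPM in the male HPS library. All 3 LPS libraries stood far above both HPS libraries, and both male LPS libraries gave nearly the same value. The increase was 7.0-fold (log2 2.81 ± 0.14 SE, adjusted p = 3.16e-80 in SD2 and 3.32e-06 in the 10-sample fit).

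Of the 100 tested detoxification genes, which comprise cytochromes P450, glutathione S-transferases and related enzymes, 6 rose and 1 fell, with a list median of 0.04 on the log2 scale. The glutathione S-transferase GstE6 rose by 0.64 ± 0.14 (SE, log2) and GstE1 by 0.48 ± 0.12. Cyp6a2, GstE2 and GstD11 also rose, by 0.47, 0.50 and 1.004 on the log2 scale (named after their values were seen), while Cyp309a2 fell by 1.10 on that scale. Of these, Cyp4e3 alone passed in the 10-sample fit. Outside the list the peroxiredoxins Prx6c and Prx6b, which reduce peroxides, rose. Prx6c had 223 CPM in the female LPS library and 244 and 225 CPM in the male LPS libraries, against 145 CPM in the female and 96.3 CPM in the male HPS library. Prx6b, its neighbour in the family, was 1.85-fold higher (log2 0.89 ± 0.12 SE), and both passed in the 10-sample fit (adjusted p = 0.0174 for Prx6c and 0.0297 for Prx6b). Reads that such related genes share were not counted for either. MtnA, a metal-binding metallothionein, rose by 0.65 ± 0.12 (SE, log2), and Fmo-2, a flavin-containing monooxygenase, fell by 0.79 on the log2 scale (SE 0.12, adjusted p = 0.0245 in the 10-sample fit).

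Several antimicrobial peptide transcripts were higher on LPS, with diptericin A far ahead, while the median of their group was close to 0. Of the 38 tested genes of the antimicrobial and immune signalling list, 9 rose and 3 fell, and the list median was 0.09 on the log2 scale. DptA (FBgn0004240, on 2R), diptericin A, a peptide against Gram-negative bacteria, had 15.3 CPM in the female LPS library and 8.56 and 8.78 CPM in the male LPS libraries, against 0.923 CPM in the female and 0.291 CPM in the male HPS library. The male HPS value rests on 3 reads, which is the floor, and the female HPS value on 15 reads, against 104 to 269 reads in the LPS libraries. Its level was 18.9-fold higher on LPS (log2 4.24 ± 0.30 SE, adjusted p = 5.87e-43 in SD2 and 0.00023 in the 10-sample fit), and without the female HPS sample the log2 value of the 10-sample fit was 4.58 with an adjusted p of 0.0647.

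DptB, the second diptericin, had 12.9 CPM in the female LPS library and 8.06 and 5.57 CPM in the male LPS libraries, against 4.62 CPM in the female and 0.388 CPM in the male HPS library. The diets did not overlap, but the male HPS value again rests on few reads (4), and the log2 fold change of 2.03 ± 0.23 SE (adjusted p = 3.44e-15 in SD2) did not pass in the 10-sample fit (adjusted p = 0.0781). The difference was 1.48 in females and 3.97 in males, and in the 10-sample fit the log2 value of DptB was 1.55 without male LPS, 3.42 without female LPS, where it passed, 1.98 without male HPS and 3.66 without female HPS. Def, defensin, had 4.32 CPM in the female LPS library and 1.98 and 2.28 CPM in the male LPS libraries, against 0.554 CPM in the female and 0.485 CPM in the male HPS library, a rise of 2.66 ± 0.41 (SE, log2). Mtk, metchnikowin, an antifungal peptide, had 23.5 CPM in the female LPS library and 17.1 and 17.0 CPM in the male LPS libraries, against 13.9 CPM in the female and 6.31 CPM in the male HPS library, a rise of 1.03 ± 0.16 (SE, log2). Neither Def nor Mtk overlapped between the diets, and neither passed in the 10-sample fit (adjusted p = 0.137 for each).

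Among the other called members, which apart from Dro were named after their values were seen, several had opposite signs in the sexes. Dro, drosocin, rose by 1.23 ± 0.37 (SE, log2), with a difference of 1.67 in females and 0.21 in males. AttC, an attacin, rose by 0.72, with 0.13 in females and 1.66 in males. The bomanins BomS1, BomS4 and BomS5, short secreted immune peptides, rose by 0.51, 0.42 and 0.60, and BomS1 and BomS4 were at -0.06 and -0.12 in females and at 1.13 and 0.98 in males. AttA fell by 0.88 and BomT1 by 1.36 on the log2 scale, both with negative differences in females (-1.56 and -2.41) and positive ones in males (0.59 and 0.12). PGRP-LB, an enzyme that degrades bacterial peptidoglycan and so damps the response, fell by 0.63. Its difference was -1.02 in females and -0.26 in males, or -0.13 with the second male LPS library alone. PGRP-LB did not pass in the 10-sample fit (adjusted p = 0.278). AttA has a closely similar copy, AttB, whose shared reads were left out, so their levels are uncertain.

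**Figure D3:**
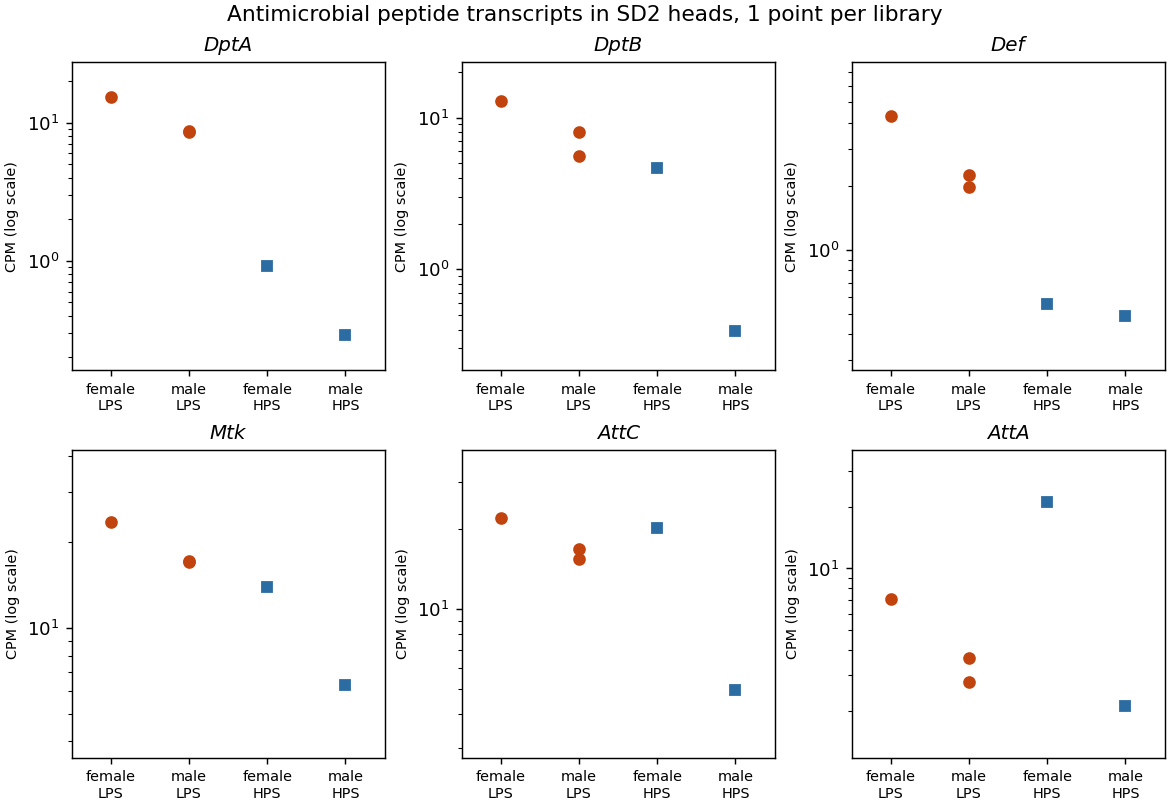
CPM on a log axis of 6 antimicrobial peptide genes, 1 point per library, with LPS (orange circles) left of HPS (blue squares). DptA, DptB, Def and Mtk lie higher in all 3 LPS libraries than in both HPS libraries, while AttC and AttA overlap between the diets, the female HPS library of AttA (21.2 CPM) being the highest of the 5.

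Transcripts of energy metabolism shifted in small numbers. Of 20 tested genes of lipolysis and beta-oxidation 3 rose and none fell by edgeR's test, with a list median of 0.14 on the log2 scale. These were Acox57D-d and Acox57D-p, acyl-CoA oxidases that start fatty acid breakdown in the peroxisome, and AkhR, the receptor for the adipokinetic hormone that mobilises fat. Acox57D-d had 59.4 CPM in the female LPS library and 40.7 and 37.8 CPM in the male LPS libraries, against 40.1 CPM in the female and 24.0 CPM in the male HPS library. The rise held within each sex, whereas the male LPS and female HPS values overlapped across the sexes (log2 0.63 ± 0.13 SE, adjusted p = 0.0424 in the 10-sample fit). Acox57D-p rose by 0.43 ± 0.13 and AkhR by 0.56 ± 0.13 (SE, log2). Of 17 tested genes of fatty acid and triglyceride synthesis 1 rose: Dgat2, which adds the last fatty acid to a triglyceride, at 9.66 CPM in the female LPS library and 19.2 and 19.1 CPM in the male LPS libraries, against 5.97 CPM in the female and 9.51 CPM in the male HPS library (log2 0.85 ± 0.18 SE). Npc2h, of a family of lipid-binding secreted proteins, rose by 0.64 ± 0.12 (SE, log2).

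In the group of trehalose, glycogen and pentose phosphate enzymes 13 of 15 tested genes had a negative fold change, and 2 of them fell. Over all genes tested 4843 of 9806 were negative. Sodh1, a sorbitol dehydrogenase, had 150 CPM in the female LPS library and 135 and 117 CPM in the male LPS libraries, against 216 CPM in the female and 188 CPM in the male HPS library (log2 -0.55 ± 0.12 SE), and Pgm2a, a phosphoglucomutase, fell by 0.48 ± 0.12 (SE, log2). Ldh, lactate dehydrogenase, fell by 0.56 ± 0.13 and was the called member among 18 tested genes of glycolysis. The glycolysis genes were positive in 8 and negative in 10 cases. None of 9 tested genes of the sugar-sensing list passed by edgeR's test, and 5 of them were positive. Amy-p, an amylase with a near-identical copy whose shared reads were left out, fell by 1.07 ± 0.31 (SE, log2) and was the called member of 7 tested gut enzymes, with 18 reads in the female LPS library and 32 and 24 reads in the male LPS libraries, against 77 reads in the female and 19 reads in the male HPS library. Its difference was -2.15 in females and 0.10 in males, and the male difference was close to 0.

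In amino acid and one-carbon metabolism 1 of 29 tested genes rose and 3 fell. Odc1, ornithine decarboxylase, the entry step of polyamine synthesis, had 27.3 CPM in the female LPS library and 18.7 and 21.7 CPM in the male LPS libraries, against 16.1 CPM in the female and 9.51 CPM in the male HPS library (log2 0.89 ± 0.15 SE). The 3 that fell were Sardh, sarcosine dehydrogenase (log2 -0.96 ± 0.17 SE), Shmt, serine hydroxymethyltransferase (log2 -0.49 ± 0.12 SE), and pug, a folate-dependent dehydrogenase (log2 -0.40 ± 0.12 SE). None of these 4 passed in the 10-sample fit, in which Sardh had an adjusted p of 0.0746. CG8665 (on 2L), known here by its number, was the gene with the lowest adjusted p among those that fell after Fbp1 and Fbp2. It had 10.2 CPM in the female LPS library and 4.84 and 3.80 CPM in the male LPS libraries, against 50.7 CPM in the female and 32.5 CPM in the male HPS library. All LPS values lay below both HPS values, and the level was 5.97-fold lower on LPS (log2 -2.58 ± 0.15 SE, adjusted p = 1.07e-05 in the 10-sample fit).

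In insulin, FOXO and TOR signalling 1 of 27 tested genes passed. ImpL2, a secreted protein that binds insulin-like peptides and dampens their signal, had 132 CPM in the female LPS library and 209 CPM in each male LPS library, against 237 CPM in the female and 333 CPM in the male HPS library. The diets did not overlap, and both sexes moved alike, by -0.84 in females and -0.69 in males (log2 fold change -0.76 ± 0.13 SE, adjusted p = 4.02e-07 in SD2 and 0.0245 in the 10-sample fit). Among the insulin-like peptides made in the brain, Ilp2 had a log2 fold change of 0.28 ± 0.13, Ilp3 of -0.32 ± 0.13 and Ilp5 of -0.04 ± 0.14 (SE), and none of these passed (adjusted p = 0.387 for Ilp2, 0.214 for Ilp3 and 0.99 for Ilp5, edgeR). These peptides were named after their values were seen.

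Sirup, a mitochondrial factor for assembly of succinate dehydrogenase, rose on LPS, with 383 CPM in the female LPS library and 368 and 340 CPM in the male LPS libraries, against 247 CPM in the female and 169 CPM in the male HPS library. Its diets did not overlap (log2 0.84 ± 0.13 SE, adjusted p = 0.022 in the 10-sample fit). The large machines of the cell did not pass gene by gene. By edgeR's test none of 65 tested genes of oxidative phosphorylation, none of 74 cytosolic and 70 mitochondrial ribosomal protein genes and none of 32 proteasome genes passed. The proteasome genes were negative in 31 of 32 cases, against 4843 of all 9806 genes tested. Their values were small, with a median of -0.08 on the log2 scale and a lowest value of -0.27. By sex, 0 of 32 were positive in females and 14 in males, or 16 with the second male LPS library alone.

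Resilin and other cuticle transcripts were lower on LPS. Of 54 tested cuticle protein genes, 1 rose and 8 fell, and the list median was -0.04 on the log2 scale. Resilin, the gene of the elastic cuticle protein, had 163 CPM in the female LPS library and 55.1 and 46.2 CPM in the male LPS libraries, against 400 CPM in the female and 97.9 CPM in the male HPS library. The sexes differed in level and overlapped across the diets, but the decrease was of similar size in both, -1.29 in females and -0.95 in males (log2 fold change of resilin -1.13 ± 0.12 SE, adjusted p = 0.0264 in the 10-sample fit). The cuticle proteins Cpr64Aa, Cpr72Ec and Ccp84Ab fell by 0.82, 0.75 and 0.61 on the log2 scale. Cpr64Ac, named after its values were seen, was the member that rose (log2 0.72 ± 0.20 SE).

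All 15 tested genes of cuticle tanning had a negative fold change, against 4843 of all 9806 genes tested, and 2 fell. These were ple, tyrosine hydroxylase, which makes the precursor of dopamine (log2 -0.49 ± 0.14 SE), and e, ebony, which conjugates dopamine for tanning (log2 -0.58 ± 0.14 SE). In females the differences were larger than in males for both, -0.75 and -0.91 in females against -0.24 and -0.25 in males. Of 22 tested muscle genes 18 were negative and 3 fell. These 3 were Zasp66, a protein of the sarcomere's Z disc, by 0.62, TpnC73F, a troponin C, by 0.58 and Mp20, a muscle protein of the calponin family, by 0.49 on the log2 scale. The TpnC73F and Mp20 differences were -0.89 and -0.81 in females, against -0.24 and -0.18 in males. The summed muscle level was 38600 CPM in the female LPS library and 26400 and 25700 CPM in the male LPS libraries, against 45400 CPM in the female and 26800 CPM in the male HPS library. Its part in the cuticle and tanning values was not tested. Mur18B, a mucin-related gene, fell by 1.43 ± 0.20 (SE, log2) and Hsp23, a small heat shock protein, by 0.76 ± 0.13, Hsp23 being the called member of 19 tested stress genes. None of ple, e, Zasp66, TpnC73F, Mp20, Mur18B and Hsp23 passed in the 10-sample fit (adjusted p = 0.0909 to 0.416).

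Transcripts of odorant-binding proteins and of peptide signalling moved in both directions. Of 26 tested odorant-binding protein genes 3 rose and 4 fell. Obp99b had 41.1 CPM in the female LPS library and 27.0 and 24.2 CPM in the male LPS libraries, against 121 CPM in the female and 47.3 CPM in the male HPS library. The diets did not overlap, and its level was 2.36-fold lower on LPS (log2 -1.24 ± 0.12 SE, adjusted p = 0.00532 in the 10-sample fit). Os-C, an olfactory-specific transcript of the antenna, fell to 10.2 CPM in the female LPS library and 12.8 and 12.5 CPM in the male LPS libraries, against 22.3 CPM in the female and 24.4 CPM in the male HPS library (log2 -1.04 ± 0.15 SE, adjusted p = 0.0174 in the 10-sample fit). Obp57b fell by 0.66 and lush by 0.58 on the log2 scale. For Obp57b the difference was -1.05 in females and -0.28 in males, or -0.04 with the second male LPS library alone. For lush the male difference was -0.23 with both male LPS libraries and 0.14 with the second alone, within the run, against -0.93 in females. In the other direction, Obp99a rose by 1.58 ± 0.30 (SE, log2), Obp56d by 0.52 and Obp56g by 0.45. Obp99a overlapped across the sexes, with 2.85 and 1.77 CPM in the male LPS libraries and 2.28 CPM in the female HPS library. Its male HPS value rests on 9 reads. Obp57b, lush and the 3 genes that rose did not pass in the 10-sample fit (adjusted p = 0.265 to 0.748). Of the genes in this list, lush, Obp56d and Obp56g were named after their values were seen.

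The channel subunit ppk22, of the pickpocket family of sodium channels, had 22.5 CPM in the female LPS library and 32.9 and 31.8 CPM in the male LPS libraries, against 65.4 CPM in the female and 57.9 CPM in the male HPS library. It was lower on LPS without overlap (log2 -1.19 ± 0.13 SE, adjusted p = 0.0174 in the 10-sample fit). Of 31 tested neuropeptide genes, CCHa2, a nutrient-responsive peptide of fat body and gut, fell by 0.51 ± 0.12 (SE, log2), and Nplp3 rose by 0.52 ± 0.15. The CCHa2 difference was -0.93 in females and -0.09 in males. Neither gene passed in the 10-sample fit (adjusted p = 0.586 for CCHa2 and 0.473 for Nplp3). None of 23 synaptic release genes, 31 phototransduction and pigment genes, 14 glial genes or 12 clock genes passed by edgeR's test. The synaptic genes were positive in 21 of 23 cases, with a median of 0.09 and a highest value of 0.27 on the log2 scale. Over all 9806 genes tested, 4963 were positive. By sex, the synaptic genes were positive in 23 cases in females and 12 in males, or 21 with the second male LPS library alone. Over all genes tested these counts were 4882, 4732 and 5423. Jheh1, a juvenile hormone epoxide hydrolase, rose by 0.50 ± 0.13 (SE, log2) and was the called member of 11 tested juvenile hormone genes, and none of 13 ecdysone genes passed. The Jheh1 difference was 0.82 in females and 0.16 in males, and Jheh1 did not pass in the 10-sample fit (adjusted p = 0.299).

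**Figure D4:**
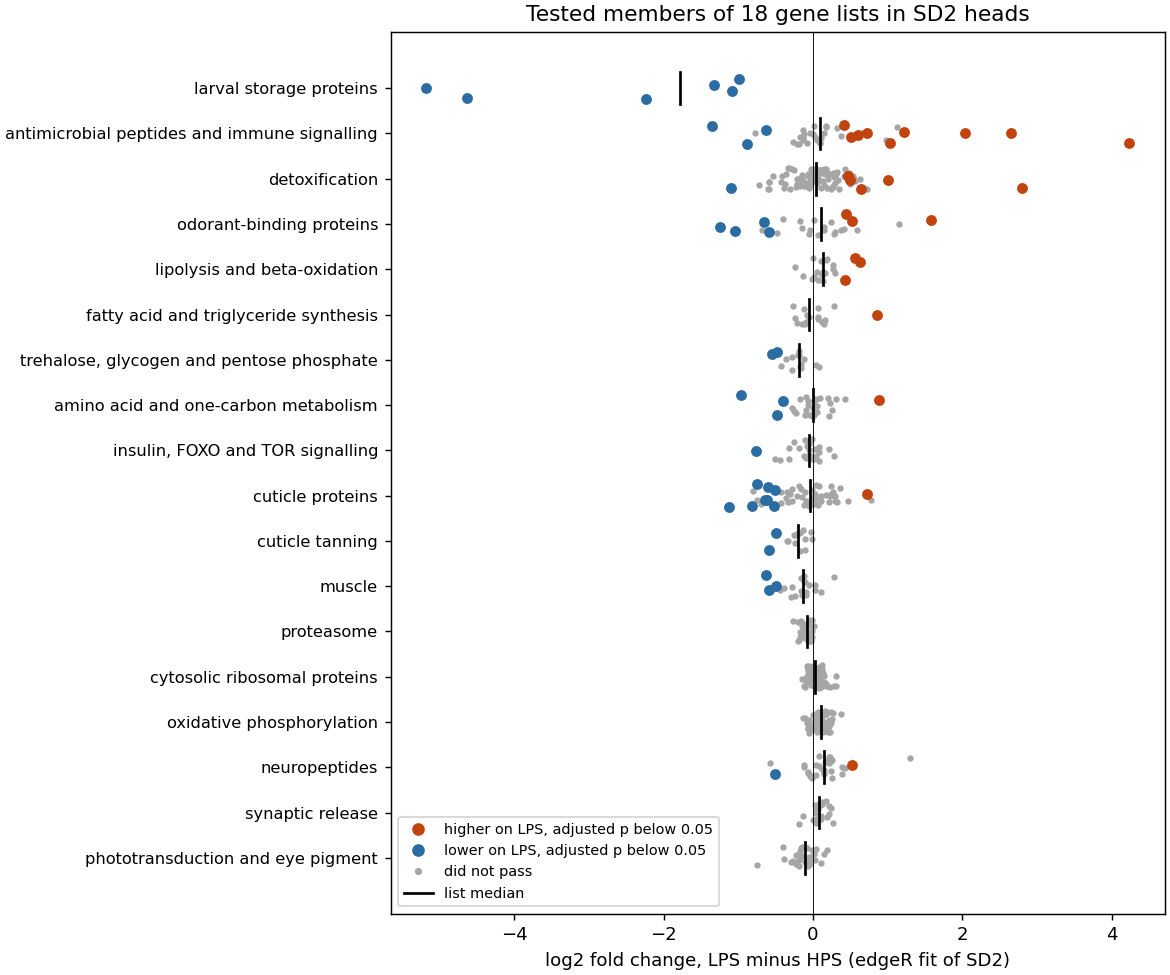
Log2 fold change of LPS over HPS in SD2 (x axis) for the tested members of 18 gene lists, 1 point per gene, with called genes in orange (higher on LPS) and blue (lower), other genes in grey and the list median as a bar. The storage protein list has all 6 members on the negative side with a median of -1.78, whereas the other medians lie between -0.20 and 0.15.

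Among genes known here only by a number, CG9676 (on X) and CG45045 (on 3R) had the largest rises by fold besides DptA, and both were close to absence on HPS. CG9676 had 66 reads in the female LPS library and 72 and 52 reads in the male LPS libraries, against 9 reads in the female and 0 reads in the male HPS library (log2 3.59 ± 0.42 SE, adjusted p = 0.0297 in the 10-sample fit). The CG9676 call was lost in all 4 fits that left out an SD2 sample (adjusted p = 0.163 to 0.248), where the log2 value ran from 2.95 without male HPS to 8.94 without female HPS, and in DESeq2 (adjusted p = 0.855). CG45045 had 12 reads in the female LPS library and 15 and 11 reads in the male LPS libraries, against 1 and 0 reads in the female and male HPS libraries. CG11893 (on 3R) rested on more reads, with 31.0 CPM in the female LPS library and 50.5 and 48.5 CPM in the male LPS libraries, against 12.5 CPM in the female and 22.6 CPM in the male HPS library (log2 1.21 ± 0.14 SE, adjusted p = 0.0224 in the 10-sample fit). Conversely CG31778 (on 2L) fell by 0.92 ± 0.14 (SE, log2) and CG3999 (on 3R) by 0.67 ± 0.12, with adjusted p of 0.0174 and 0.0264 in the 10-sample fit. A total of 128 of the 265 called genes carry no name beyond such a number.

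The size of the SD2 response was set against the other lines, SD3 and SD6, in a fit of 10 RNA samples that left out their male LPS libraries. Those 2 libraries go against their labels: over all tested genes the library labelled male LPS SD3 correlated at 0.971 with female LPS SD3 and 0.989 with female LPS SD6. The one labelled male LPS SD6 correlated at 0.981 with female LPS SD3 and 0.964 with female LPS SD6. The diet effect of SD2 differed from the mean of SD3 and SD6 in 3 of 9794 tested genes (0.0306%), namely Fbp1, Fbp2 and DptA. In this fit LPS was represented by females only in SD3 and SD6 and by both sexes in SD2. Differences of the diet effect between strains and between sexes can therefore not be fully separated. As labelled over 12 samples none passed (edgeR, 134 genes at an unadjusted p below 0.05), and with the 2 strain labels exchanged Fbp1 and Fbp2 passed. Without male LPS SD2 or without male HPS SD2 1 gene passed, without female LPS SD2 5, without female HPS SD2 8, and DESeq2 called 13.

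Fbp1 was lower on LPS in females of all 3 lines, with the largest difference in SD2. In females the difference was -4.82 in SD2, -1.48 in SD3 and -2.03 in SD6 on the log2 scale, and the SD2 effect differed from the mean of the others by -2.79 ± 0.29 (SE, adjusted p = 0.00462). The level reached on LPS was lowest in SD2, at 2.33 CPM in SD2 females, against 73.7 CPM in SD3 and 10.9 CPM in SD6 females. On HPS the female levels were 67.6 CPM in SD2, 206 CPM in SD3 and 44.7 CPM in SD6. The left-out libraries labelled male LPS SD3 and male LPS SD6 had 7.07 and 64.9 CPM of Fbp1, against 146 CPM in male HPS SD3 and 39.4 CPM in male HPS SD6, so as labelled the male SD6 level was higher on LPS. Fbp2 was also lower in females of all 3 lines, with differences of -5.41 in SD2, -2.29 in SD3 and -1.73 in SD6 and a difference between SD2 and the others of -3.19 ± 0.34 (SE, adjusted p = 0.00462). Without male LPS SD2 the adjusted p of this difference was 0.0753 for Fbp1 and 0.0558 for Fbp2, and without female LPS SD2 0.0563 and 0.114. Without male HPS SD2 it was 0.0697 for Fbp2.

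DptA was higher on LPS in SD2 and showed little difference in females of the other lines, 0.31 in SD3 and -0.21 in SD6 on the log2 scale, against 3.98 in SD2 females. The SD2 effect exceeded the mean of the others by 4.11 ± 0.52 (SE, adjusted p = 0.0156). The left-out library labelled male LPS SD3 had 12.1 CPM of DptA, against 1.08 CPM in male HPS SD3 and 1.28 CPM in male HPS SD6, and the left-out library labelled male LPS SD6 had 0.232 CPM. With both of these libraries in the fit the difference did not pass (adjusted p = 0.9998 as labelled and 0.9999 with the labels exchanged). Nor did the diet effect of DptA within SD2 pass there (adjusted p = 0.83 as labelled and 0.0747 with the labels exchanged). Without male HPS SD2 the adjusted p was 0.176 and without female HPS SD2 0.171.

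Obp99b differed by -1.55 in SD2, -1.85 in SD3 and -1.47 in SD6 females, and Lsp1beta by -1.15, -1.07 and -1.14. In Cyp4e3 the female difference was 2.98 in SD2, 1.23 in SD3 and 1.805 in SD6, and the difference between SD2 and the mean of the others, 1.30 ± 0.21 SE, did not pass (adjusted p = 0.12). ImpL2 differed by 0.17 in SD3 and -0.10 in SD6 females, against -0.84 in SD2 females, and Fmo-2 by -0.10 and -0.07, against -0.94. These differences between SD2 and the other lines did not pass either. Of the 265 genes, 16 were also called for the mean of SD3 and SD6, where 35 of 9794 genes passed (0.357%). The genes that fell in SD2 had the same sign in females of SD3 in 152 of 173 cases (87.9%) and of SD6 in 143 (82.7%), against 55.7% and 59.1% of all tested genes with a negative value in SD2. For the 92 genes that rose the shares were 64.1% in SD3 and 68.5% in SD6, against 58.6% and 62.7% of all tested genes with a positive value in SD2, which is near the background.

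**Figure D5:**
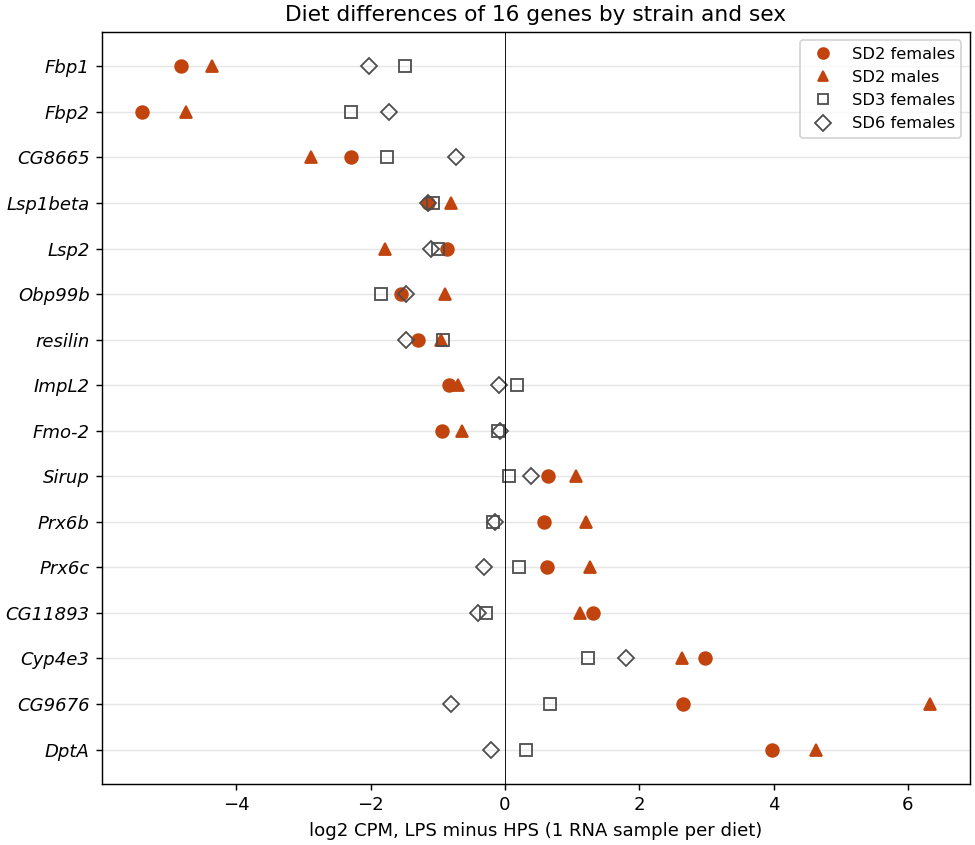
Difference in log2 CPM between LPS and HPS (x axis) of 16 genes in SD2 females (orange circles), SD2 males (orange triangles), SD3 females (open squares) and SD6 females (open diamonds), with 1 RNA sample per diet behind each point. Both SD2 points of Fbp1, Fbp2 and DptA lie apart from SD3 and SD6, while the points of Lsp1beta and resilin lie together.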

How the data were processed

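Poly(A) RNA of fly heads was sequenced as single-end reads of 75 bp from 100 ng of total RNA with 20 pg of spike-in RNA, per the labels' protocols. The deposited files give raw read counts for each gene, not normalized by the authors. The tools named, per the submitters' processing notes, include HTSeq 0.6.1p1, TopHat2 2.1.0, bcl2fastq 1.8 and CASAVA 1.8.2. The deposited file names mark uniquely mapped, reverse-stranded reads. Reads shared by near-identical genes are then missing, and a gene on the opposite strand has its own count. The assembly and gene models used for counting were not given in the sources used here. Symbols and arms came from the Ensembl annotation of BDGP6, in which 17155 of 17370 gene identifiers had a symbol. The 96 spike-in and 5 summary entries stayed out of library sizes and tests.

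Both libraries of the male LPS RNA were summed and counted as 1 sample, except in the alternatives with single libraries or with a run term. The test was that of edgeR 4.0.16, run in R 4.3.3: TMM scaling, filterByExpr by diet with a minimum count of 10, terms for sex and diet, the quasi-likelihood F-test and Benjamini-Hochberg adjustment over all genes tested, called below 0.05. The biological coefficient of variation was 8.97%. Differences within a sex are of log2 CPM with a prior count of 1, have 1 RNA sample per diet and were not tested. The strain contrast used terms for strain, sex and diet within strain over 10 RNA samples (3 residual and 8.78 prior degrees of freedom). The script was tested on simulated data. Alternatives were DESeq2 1.42.0, limma 3.58.1 (voom), other size factors and filters, single libraries, samples left out, spread pooled over other sample sets and no term for sex. A run term and robust prior degrees of freedom were added after seeing the data. Floors cover counting error only.

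Named genes are, among called genes of 1 sign in both sexes (also with the second male LPS library alone), the 12 higher and 12 lower of smallest p with a name, the 3 higher and 3 lower of largest fold, up to 4 called members per list, all storage proteins, and for strains the 5 of smallest p per direction. The comparison, its 32 gene lists and this rule were chosen with earlier results of these data known.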

Additional observations from a re-analysis of the deposited data

Results flagged for a closer look

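The diet effect differed between SD2 and the mean of SD3 and SD6 by edgeR's quasi-likelihood test for 3 genes. The difference, as SD2 minus the others on the log2 scale, was 4.11 for DptA (adjusted p = 0.0156), -2.79 for Fbp1 and -3.19 for Fbp2 (adjusted p = 0.00462 for both).

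Within SD2, 6 of the called genes named in the text had opposite signs in the sexes. So did the medians of 17 gene lists, of which the 5 whose medians lay at least 0.1 from 0 in both sexes are given here. These differences between the sexes were not tested, since there was 1 RNA sample per sex and diet. Lsp1gamma differed by -1.96 between LPS and HPS females and by 0.17 between LPS and HPS males (log2 CPM), and Amy-p by -2.15 in females and 0.10 in males. Of the immune genes, AttA differed by -1.56 in females and 0.59 in males, BomT1 by -2.41 and 0.12, BomS1 by -0.0608 and 1.13, and BomS4 by -0.12 and 0.98. The median difference of 65 oxidative phosphorylation genes was -0.121 in females, where 7 were positive, and 0.323 in males, where 61 were positive. That of 74 cytosolic ribosomal protein genes was -0.163 in females, with 4 positive, and 0.231 in males, with 70 positive. With the second male LPS library alone, which shares a run with the male HPS library, 64 of the oxidative phosphorylation and 68 of the ribosomal protein genes were positive in males. In females of SD3 and SD6, 22 and 21 of the 65 oxidative phosphorylation genes were positive, and 16 and 38 of the 74 ribosomal protein genes. Over all 9806 genes tested, 4882 were positive in SD2 females and 4732 in SD2 males.

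The median of 38 antimicrobial and immune signalling genes was -0.128 in females and 0.442 in males. That of 17 genes of fatty acid and triglyceride synthesis was 0.132 in females and -0.135 in males, and that of the 3 tested testis and ovary genes was 0.105 in females and -0.578 in males.

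Outside the gene counts, the share of reads on spike-in entries was 0.0645% in the female LPS library, 0.0841% and 0.44% in the first and second male LPS libraries, 0.0658% in the female HPS library and 0.558% in the male HPS library. The high values are those of the smaller run, whose 2 libraries hold 0.44% and 0.558%, against 0.0536% to 0.133% in the larger run.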

How the results depend on the processing

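The sign was the same under each alternative that gave a value for the 63 called genes named by rule and the 10 genes of the strain contrast. The 265 genes called in SD2 (92 higher, 173 lower) became 58 (18 and 40) with DESeq2, 30 (9 and 21) with the spread pooled over 10 samples, 0 (0 and 0; 356 at an unadjusted p below 0.05, edgeR) over 12 as labelled and 25 (6 and 19) with the 2 doubted labels exchanged. Without each sample in turn, in the 10-sample fit, 5 to 14 passed (1 to 7 higher, 4 to 11 lower). In the fit without sex, the block that pairs the diets within a sex (correlation of the males' deviations 0.52), 4 passed (2 higher, 2 lower). The other settings gave 229 to 362, the highest with the second male LPS library alone, of which 249 were among the 265. A run term gave 285, of which 224 were among the 265. That fit took the 5 libraries separately, so the 2 libraries of the male LPS sample counted as replicates although they share 1 RNA. For the strain contrast, 3 genes (1 higher, 2 lower) became 0 (0 and 0) as labelled, 2 (0 and 2) with labels exchanged, 4 (2 and 2) with DESeq2 size factors, 13 (7 and 6) with DESeq2, 68 (33 and 35) without a filter, and 1 to 8 (0 to 4 higher, 0 to 7 lower) without each sample. The causes were not tested. Depth limits the genes near 3 reads, such as DptA and CG9676 on HPS and Fbp2 on LPS, and 1 RNA sample per sex and diet limits any statement about a sex.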
